A study of Rattus norvegicus with 15 samples.

Results

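Acta2, Tagln, Myh11 and Des are 4 genes that mark smooth muscle, and their level was taken as a measure of the muscle carried along in the dissected colon layer. They were found by Ensembl ID and chromosome in the count tables of all 15 libraries. All 4 genes were present, among 32883 in the tables, and all 4 passed the filter on low counts in every comparison. The libraries came from the mucosa and submucosa of the colon of Sprague Dawley rats, in 5 groups of 3 libraries. Untreated WT rats at 3 M of age are called WT-C, and WT rats of that age given antibiotics are called WT-Ab. TG-C and TG-Ab are the untreated and treated homozygous transgenic littermates. The antibiotic cocktail was given for 2 weeks from 2.5 M of age. The last group is untreated WT rats at > 12 M, whose sample names give 14 M; TG rats of that age were not analysed here. The sample labels name the cell type colon epithelial, whereas the genes described here belong to muscle. Neither the labels nor the methods state that each library is a separate rat, and a p-value here therefore reflects library-to-library spread, which may be technical.

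Smooth muscle cells shorten when myosin pulls on actin filaments that are anchored in the cell by a scaffold of intermediate filaments. In the colon such cells form the thin muscularis mucosae at the base of the mucosa, the walls of submucosal vessels and the thick outer muscle layers. Acta2 encodes the smooth muscle α-actin and is also made by myofibroblasts and pericytes. Tagln encodes transgelin (SM22α), an actin-binding protein of the same cells. Myh11 encodes the smooth muscle myosin heavy chain, the motor itself and the most restricted smooth muscle marker of the set, and Des encodes desmin, the intermediate filament of muscle cells. Serum response factor with its partner myocardin binds CArG boxes in many genes of this programme. In bulk tissue, fewer cells of a type and less RNA per cell cannot be told apart.

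In the Rnor6 annotation of the deposited tables, Acta2 (ENSRNOG00000058039) lies on chromosome 1 from 252537615 to 252550394 on the minus strand, with 1391 exonic bases. Tagln (ENSRNOG00000017628) lies on chromosome 8 from 50222896 to 50231357 on the minus strand, with 1254 exonic bases. Of these, 204 (16.3%) also belong to an exon of 1 other gene on the same strand, so reads there were ambiguous; that gene had at most 2195 counts in any library. Myh11 (ENSRNOG00000057880) spans chromosome 10 from 764421 to 859184 on the plus strand, with 6693 exonic bases, and Des (ENSRNOG00000019810) chromosome 9 from 82556573 to 82564294 on the plus strand, with 2176. No exon of the 4 genes overlapped a gene on the opposite strand.

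The 250 bases before the start site are shown for the 2 of 4 genes with an entry in the RefSeq promoter table (GRCr8), because the 4 genes varied together across libraries; Tagln and Myh11 had no entry. Capitals mark CArG boxes with at most 1 base differing inside the box, and CANNTG (the E-box), searched on both strands. The Acta2 stretch is chr1:241172504-241172753 on the minus strand and the Des stretch chr9:84299376-84299625 on the plus strand.
Acta2: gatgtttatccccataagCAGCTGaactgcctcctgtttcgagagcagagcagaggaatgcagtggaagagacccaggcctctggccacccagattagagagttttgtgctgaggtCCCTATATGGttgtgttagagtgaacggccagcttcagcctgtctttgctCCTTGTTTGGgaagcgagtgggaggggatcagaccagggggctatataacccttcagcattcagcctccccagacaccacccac
Des: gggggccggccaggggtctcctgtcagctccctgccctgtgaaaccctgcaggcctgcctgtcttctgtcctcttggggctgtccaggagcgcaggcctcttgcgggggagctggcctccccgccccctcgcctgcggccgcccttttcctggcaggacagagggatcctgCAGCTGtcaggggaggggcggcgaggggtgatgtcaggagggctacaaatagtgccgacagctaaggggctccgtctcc
The Acta2 promoter held 2 such CArG windows, CCCTATATGG at 134 to 125 bases before the start and CCTTGTTTGG at 84 to 75, and CAGCTG at 232 to 227. The Des stretch held no CArG window by this rule and CAGCTG at 79 to 74. Among 33469 promoters of the same length, 1.5% held an exact CArG box, 8.08% one with at most 1 differing base and 65.5% a CANNTG. A match is a description of the sequence and was not tied to the counts.

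The libraries held 15606835 to 28685094 counted reads, or read pairs at > 12 M, and the share of mitochondrial counts was 6.05% to 13.7%. CPM are the counts of a gene scaled to the library's total. Values of log2 CPM were also scaled by TMM, edgeR's correction for library composition. On the first principal component of log2 CPM, which held 59.0% of the variance among the 12 libraries at 3 M, WT-Ab 1 (−92.3), TG-C 1 (−92.3) and TG-Ab 1 (−63.8) stood apart from the other 9 libraries (2.10 to 51.9). These 3 also had the lowest mitochondrial shares at 3 M, at 7.62%, 6.05% and 9.35%, against 11.0% to 13.7% in the others. Results that rest on them are given with and without them where they differ.

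The 4 genes together took a nearly fixed share of the counts in WT-C and a more variable share in every other group. In WT-C the summed share was 0.292%, 0.294% and 0.300%, a mean of 0.295% ± 0.00432 (SD, n = 3). The 95% exact binomial intervals, which cover counting error only, were 0.289% to 0.295%, 0.291% to 0.296% and 0.298% to 0.303%, so those of libraries 1 and 2 overlapped and that of library 3 lay just above them. The highest WT-C library exceeded the lowest by a factor of 1.03.
WT-Ab libraries 1 to 3 held 0.821%, 0.407% and 0.356%, all above the 3 WT-C libraries. In TG-C the shares were 0.128%, 0.713% and 0.155%, so library 2 was 5.56 times library 1. In TG-Ab they were 0.296%, 1.25% and 0.345%, again with library 2 far above the others.
WT-Ab thus averaged 0.528% ± 0.255, TG-C 0.332% ± 0.330 and TG-Ab 0.632% ± 0.539 (SD, n = 3). Much of the WT-Ab spread came from WT-Ab 1, without which the mean was 0.382%, from libraries at 0.407% and 0.356%. The SD of the TG groups was nearly as large as the mean, because of library 2 in each. At > 12 M, libraries 20, 21 and 19 held 0.170%, 0.248% and 0.0401%, all below WT-C, with a mean of 0.152% ± 0.105. Library 19 had the lowest share of all 15, 6.19 times below library 21 of its own group.

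**Figure D1:**
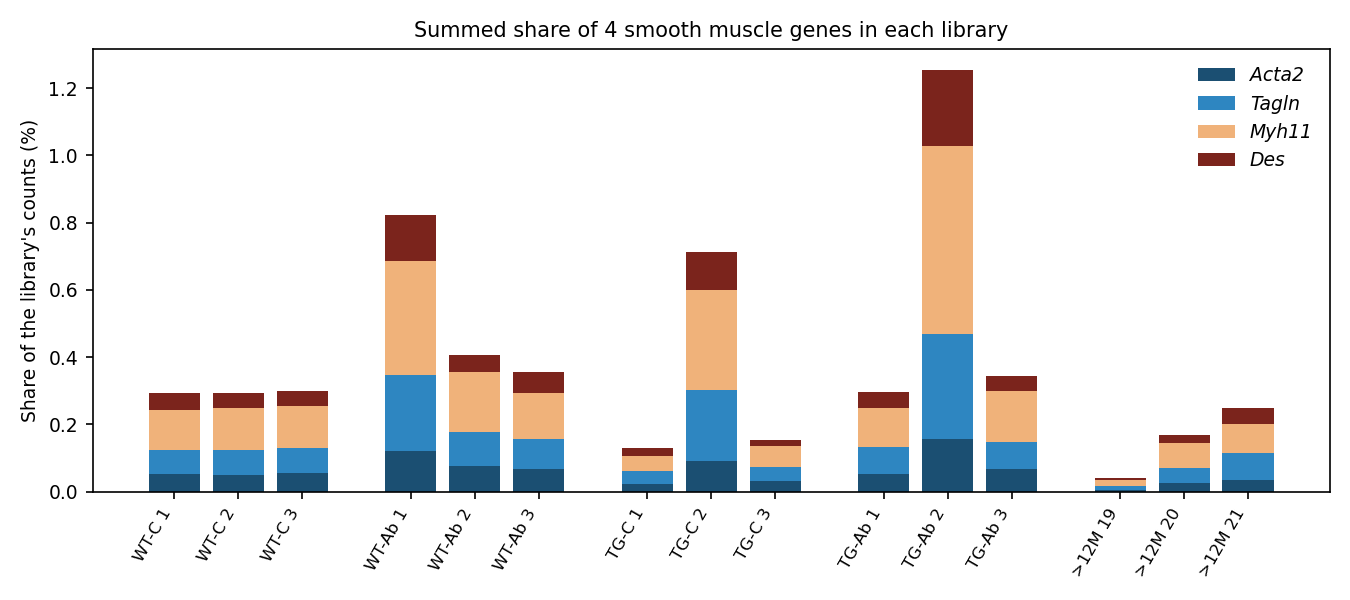
Share of each library's counts (%) in Acta2, Tagln, Myh11 and Des, stacked, for the 15 libraries by group and replicate number. The 3 WT-C bars stand within 0.292% and 0.300%, whereas TG-Ab 2 reaches 1.25% and the > 12 M library 19 only 0.0401%.

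The 3 libraries that stood apart on the first component did not share a muscle level. WT-Ab 1 had the second highest summed share of the 12 libraries at 3 M (0.821%), TG-C 1 the lowest (0.128%) and TG-Ab 1 the 8th highest (0.296%), close to WT-C. The 3 libraries therefore ran from the lowest to the second highest share while lying on 1 side of the first component. Only TG-Ab 2 (1.25%) was higher. The second component, with 15.1% of the variance, ordered the libraries much as these genes did. TG-Ab 2, the library highest in the 4 genes, also scored highest on it (59.6), and TG-C 1 and TG-C 3, the lowest in share, also scored lowest (−36.8 and −26.8). TG-Ab 3 went against this order, with the second highest score (22.4) at a share of 0.345%. The second component also went with treatment. Treated libraries scored −3.90 to 59.6, and untreated ones −36.8 to −13.1 apart from TG-C 2 (16.9). Whether this component followed muscle or antibiotics was not tested. The 4 genes were among the 12457 that entered the components, so the likeness is a description.

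**Figure D2:**
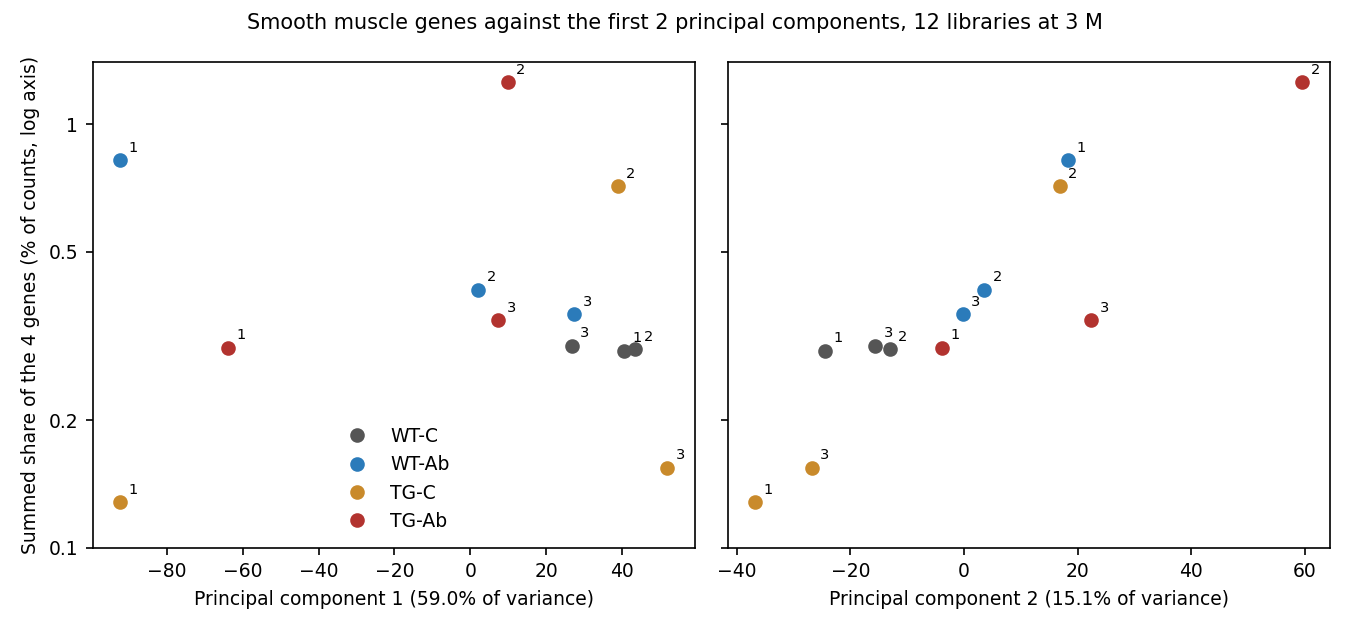
Summed share of the 4 genes (% of counts, log axis) against the first and the second principal component in the 12 libraries at 3 M, coloured by group and marked with the replicate number. The 3 libraries at the left of the first component hold 0.128%, 0.296% and 0.821%, while on the second component the share runs from 0.128% at the lowest score to 1.25% at the highest.

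Among the contractile filament genes, Acta2 had 509, 497 and 541 CPM in WT-C 1 to 3, a mean of 516 ± 22.8 (SD, n = 3). It stood at 1217, 755 and 662 CPM in WT-Ab, 224, 920 and 306 in TG-C, and 515, 1559 and 683 in TG-Ab. All WT-Ab libraries exceeded all WT-C libraries, and the TG groups overlapped each other. At > 12 M libraries 20, 21 and 19 had 263, 351 and 57.8 CPM, each below every WT-C library.

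Myh11, the myosin motor, had the most counts of the 4 genes in every library and the widest range. It was measured at 1198, 1242 and 1236 CPM in WT-C (mean 1225 ± 24.2) and at 3391, 1763 and 1370 in WT-Ab. TG-C had 454, 3000.4 and 609 CPM and TG-Ab 1171, 5591 and 1508. The highest library at 3 M exceeded the lowest 12.3-fold, both of them from TG rats. At > 12 M the libraries had 731, 866 and 161 CPM, again all below WT-C.

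Tagln, the actin-binding partner, was at 730, 736 and 767 CPM in WT-C (mean 744 ± 19.8) and at 2240.4, 1026 and 906 in WT-Ab. It had 389, 2088 and 434 CPM in TG-C and 802, 3117 and 795 in TG-Ab. Only TG-C 1 and TG-C 3 lay below WT-C at 3 M. At > 12 M the values were 445, 790.2 and 114 CPM, so library 21 lay above all 3 WT-C libraries and the groups overlapped.

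Des, the muscle intermediate filament, was at 483, 462 and 458 CPM in WT-C (mean 468 ± 13.3) and at 1366, 525 and 625 in WT-Ab. TG-C had 215, 1122 and 197 CPM and TG-Ab 476, 2264 and 463. TG-Ab 1 and TG-Ab 3 thus fell inside the WT-C range and TG-Ab 2 far above it. At > 12 M the libraries had 256, 472 and 68.0 CPM, with library 21 inside the WT-C range.

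**Figure D3:**
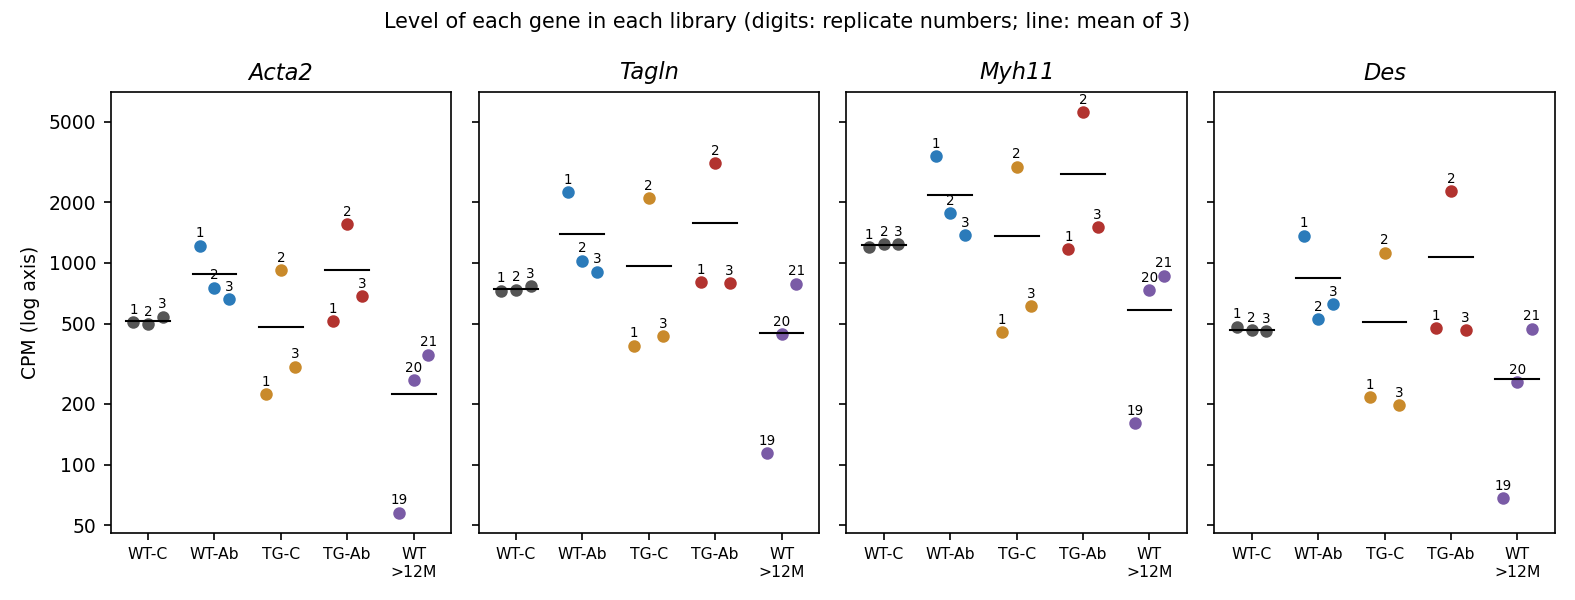
CPM of each gene (log axis) in each library, by group, with replicate numbers beside the points and a line at the mean of 3 libraries. The WT-C points lie together, library 2 is the highest in both TG groups for all 4 genes, and library 19 is the lowest at > 12 M.

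TG-Ab 2, WT-Ab 1 and TG-C 2 took the top 3 places at 3 M, in this order, for each of the 4 genes, and TG-C 1 and TG-C 3 filled the last 2 places for each. Across the 12 libraries the log2 CPM of each gene followed the mean of the other 3 with Pearson's r = 0.971 for Acta2, 0.986 for Tagln, 0.994 for Myh11 and 0.980 for Des (Spearman's rho 0.979, 0.993, 0.972 and 0.853). These values describe 12 libraries that share genotype, treatment and depth differences. From lowest to highest at 3 M the range was 6.96-fold for Acta2, 8.01-fold for Tagln and 11.5-fold for Des. With the > 12 M libraries, which were counted in another way, it widened to between 27-fold and 34.7-fold.

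Within WT-C the 4 genes varied little beside all genes. Their SD of log2 CPM was 0.04 for Acta2, 0.02 for Tagln, 0.04 for Myh11 and 0.06 for Des, and only 2.90% to 14.5% of 12606 genes had a smaller SD there. The mean CPM of the 4 genes over all 15 libraries exceeded that of 98.7% to 99.8% of 12457 genes. Genes of like level were not compared, so the small SD may go with level. In TG-C the SD was 1.12 to 1.5, larger than that of 90.1% to 93.8% of genes, and in TG-Ab 0.84 to 1.3, larger than that of 91.1% to 95.4%. In WT-Ab it was 0.35 to 0.63, larger than that of 52.4% to 80.0%. At > 12 M it was 1.35 to 1.46, larger than that of 98.6% to 98.9% of genes.

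Per kilobase of exon, Tagln was the highest of the 4 genes in WT-C at 593 ± 15.8 CPM per kb, followed by Acta2 at 371 ± 16.4, Des at 215 ± 6.11 and Myh11 at 183 ± 3.61 (SD, n = 3). The ranges of neighbouring genes in this order did not overlap in WT-C. The order held in 12 of 15 libraries, and Des and Myh11 changed places in the other 3. A level per kilobase presumes reads from the whole transcript, as the labels' poly(A) libraries give; the paper describes libraries of 3′ ends, for which the CPM itself is the level.

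The genes did not move by the same factor. At 3 M the ratio of Myh11 to Acta2 in CPM ran from 1.99 in TG-C 3 to 3.59 in TG-Ab 2, and that of Des to Acta2 from 0.643 to 1.45 in the same 2 libraries. Between these libraries the myosin and desmin genes were thus further apart than the α-actin gene. The ratio of Tagln to Acta2 at that age was lowest in TG-Ab 3 (1.16) and highest in TG-C 2 (2.27). At 3 M, ratios between the other pairs varied by 1.59-fold for Des to Myh11, 1.60-fold for Des to Tagln and 1.63-fold for Myh11 to Tagln.

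The effect of the transgene was addressed by TG-C against WT-C. None of the 4 genes passed an adjusted p of 0.05, the threshold used throughout, in edgeR's quasi-likelihood test (two-sided, Benjamini-Hochberg adjusted over all 12038 genes tested). The share of all genes called was 0% (0 genes), with 317 (2.63%) at an unadjusted p under 0.05, none of the 4 among them. The log2 fold changes after TMM scaling, edgeR's correction for library composition, were −0.08 ± 0.52 (SE) for Acta2, 0.39 ± 0.67 for Tagln, 0.16 ± 0.72 for Myh11 and 0.14 ± 0.69 for Des. Their median was 0.15, against 0.06 over all genes. The 95% interval for Myh11 ran from 0.336-fold to 3.70-fold, so neither a large fall nor a large rise could be told from no change. The sign depended on single TG-C libraries, on TG-C 2 for Tagln, Myh11 and Des and on TG-C 1 or TG-C 3 for Acta2. Without TG-C 2 the log2 fold changes were −0.95, −0.86, −1.20 and −1.20 for Acta2, Tagln, Myh11 and Des, and without TG-C 1 they were 0.28, 0.78, 0.58 and 0.52. Without TG-C 3, Acta2 stood at 0.14, and no gene of the 4 was called in any of these fits.

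The effect of antibiotics in WT rats was addressed by WT-Ab against WT-C. All 4 genes had every WT-Ab library above every WT-C library in CPM, where 23.1% of the 12193 genes tested were separated upwards in this way. After TMM scaling 3 of the 4 remained separated upwards and Des overlapped, against 12.4% of all genes. The log2 fold changes were 0.60 ± 0.22 (SE) for Acta2, 0.73 ± 0.32 for Tagln, 0.66 ± 0.31 for Myh11 and 0.67 ± 0.33 for Des, a median of 0.66 against 0.04 over all genes. By library totals alone, the median of all genes was itself shifted by 0.17 on the log2 scale and that of the 4 genes was 0.72. None passed edgeR's quasi-likelihood test (adjusted p = 0.293 to 0.343), and 0% of all genes did. Unadjusted, 1987 genes (16.3%) had a p under 0.05, Acta2 alone of the 4 among them. WT-Ab 1, low in mitochondrial share and apart on the first component, set much of the size: without it the log2 fold changes were 0.35, 0.27, 0.25 and 0.20 in the order above. Its part in the result was not tested further.

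In TG rats the comparison of TG-Ab with TG-C had wider errors than that in WT rats for each of the 4 genes. The log2 fold changes were 0.78 ± 0.68 (SE) for Acta2, 0.55 ± 0.89 for Tagln, 0.88 ± 0.95 for Myh11 and 0.92 ± 0.97 for Des, a median of 0.83 against −0.05 over all genes, and the groups overlapped for each gene, where 10.6% of all genes were separated upwards. None was called by edgeR's quasi-likelihood test (adjusted p = 0.908 to 0.979), and 1 of 12283 genes was, 0.00814%. By library totals alone, the median shift was 0.12 for all genes and 1.08 for the 4 genes on the log2 scale. Same-numbered libraries of these 2 groups departed from their group means together over all genes, as found from these same libraries. The numbers linked WT-Ab to TG-C as well, which are rats of different genotypes, so the link does not show what a number marks. Within each of the 3 numbers, all 4 genes were higher in TG-Ab than in TG-C, also after TMM scaling. The 4 genes followed each other closely across libraries, so these are 3 pairs of libraries and not 12 separate cases. Of all genes, 28.1% were higher within all 3 numbers by library totals and 18.6% after TMM scaling. In WT rats, where the numbers did not behave as pairs, the count was 12 of 12 as well, against 34.5% and 20.9% of all genes. By library totals any numbering gives this WT count, because every WT-Ab library lay above every WT-C library for all 4 genes. The WT count therefore only restates that separation and tells nothing about pairs. After TMM scaling Des overlapped in WT rats, so its count there rested on numbers that were not pairs. In TG rats the ratio of CPM ran from 2.06 to 2.58 for number 1, from 1.49 to 2.02 for number 2 and from 1.83 to 2.47 for number 3. For the summed CPM the ratios were 2.31, 1.76 and 2.23, and after TMM scaling they were 2.25, 1.59 and 1.97.
With the replicate number as a block, the log2 fold changes were 0.91 ± 0.17 (SE) for Acta2, 0.70 ± 0.17 for Tagln, 1.06 ± 0.18 for Myh11 and 1.0 ± 0.14 for Des. The errors were several times smaller than without the block. The block was chosen from these same libraries, so the smaller errors are not separate evidence of pairs. None passed edgeR's quasi-likelihood test (adjusted p = 0.138, 0.176, 0.126 and 0.104), while the block raised the genes called from 1 to 20. TG-C 2 and TG-Ab 2, high in all 4 genes, carry the same number. Leaving out TG-Ab 2 alone gave log2 fold changes of 0.19, −0.41, −0.14 and −0.25, and leaving out TG-C 2 alone gave 1.66, 1.81, 2.24 and 2.26, for Acta2, Tagln, Myh11 and Des. With both left out they were 1.04, 0.83, 1.20 and 1.07, and with TG-C 1 and TG-Ab 1 left out 0.73, 0.49, 0.83 and 0.90, with no call by edgeR's quasi-likelihood test in any of these fits.

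**Figure D4:**
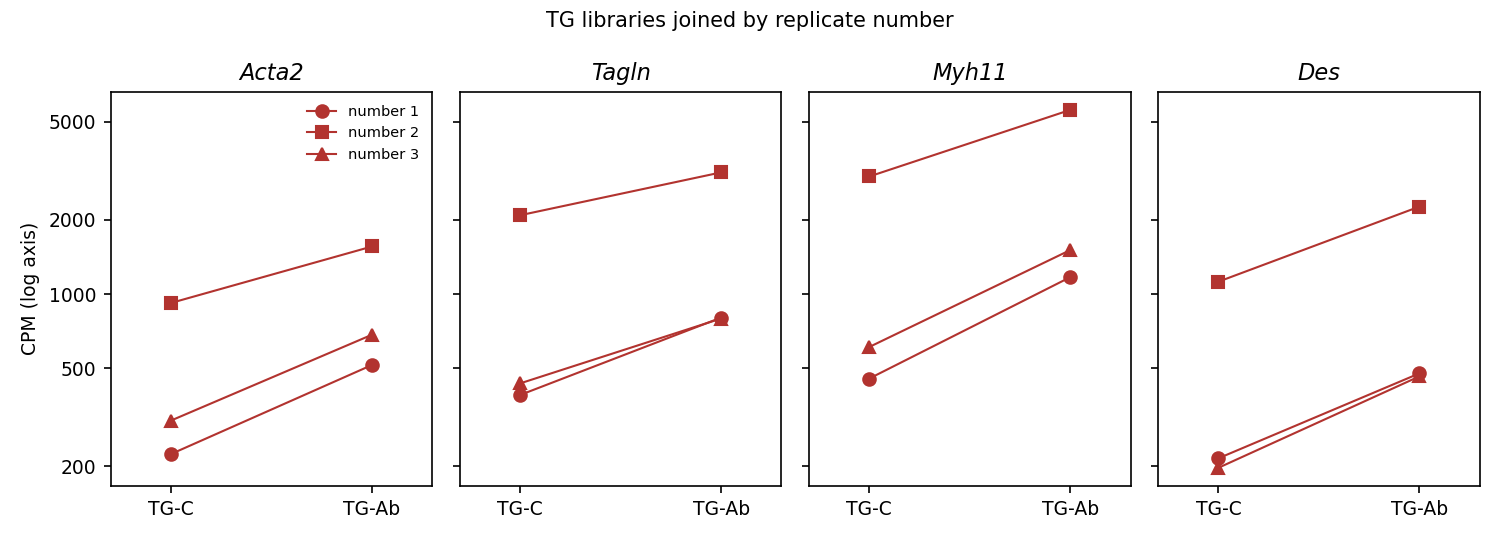
CPM of each gene (log axis) in TG-C and TG-Ab, with lines joining libraries of the same replicate number. All 12 lines slope upwards, by factors of 1.49 to 2.58, and number 2 lies above numbers 1 and 3 throughout.

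Over both genotypes, the antibiotic effect was 0.70 ± 0.36 (SE) on the log2 scale for Acta2, 0.65 ± 0.48 for Tagln, 0.78 ± 0.51 for Myh11 and 0.80 ± 0.53 for Des, with 6 libraries in each arm. By library totals alone, the median of all genes shifted by 0.16 and that of the 4 genes by 0.90. None of the 4 was called by edgeR's quasi-likelihood test (adjusted p = 0.307 to 0.494), against 347 of 12457 genes, 2.79%. The blocked fit called 820 genes and none of the 4, although the numbers of WT-C did not behave as pairs with the other groups. Without the 3 libraries apart on the first component the effects were 0.54, 0.38, 0.53 and 0.53. The interaction, which asks whether antibiotics acted differently in TG and WT rats, was 0.22 ± 0.76, −0.13 ± 1.0, 0.27 ± 1.06 and 0.29 ± 1.09 for Acta2, Tagln, Myh11 and Des. Each adjusted p was 0.998 in edgeR's quasi-likelihood test, and 0% of genes were called (184 at an unadjusted p under 0.05, 1.48%, none of the 4 among them). The 95% interval for Acta2 ran from 0.364-fold to 3.74-fold, which leaves room for a sizeable difference between genotypes in either direction.

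Age was addressed by WT rats at > 12 M against WT-C. The 4 genes were lower on average, with log2 fold changes of −1.14 ± 0.59 (SE) for Acta2, −0.66 ± 0.62 for Tagln, −1.0 ± 0.57 for Myh11 and −0.75 ± 0.62 for Des. The median was −0.87, against −0.02 over all genes. Acta2 and Myh11 had every > 12 M library below every WT-C library, as had 31.9% of the 11498 genes tested. The same 2 were separated after TMM scaling, against 26.2% of all genes. None of the 4 passed edgeR's quasi-likelihood test (adjusted p = 0.182 to 0.443), although 35.3% of all genes did. The size of the difference and its error depended on which > 12 M library was left out. Without library 21 the log2 fold changes were −1.63 for Acta2, −1.36 for Tagln, −1.41 for Myh11 and −1.48 for Des, none of them called. Without library 19 the log2 fold changes shrank to −0.68 ± 0.15 for Acta2 and −0.55 ± 0.13 for Myh11, and both were called (adjusted p = 0.0161 and 0.0190, edgeR's quasi-likelihood test), whereas Tagln (−0.20 ± 0.23) and Des (−0.29 ± 0.25) were not. That fit called 3145 of the 11466 genes tested, so a call there was common. The > 12 M libraries were counted as read pairs and the 3 M libraries as single reads, so age and counting cannot be told apart.

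**Figure D5:**
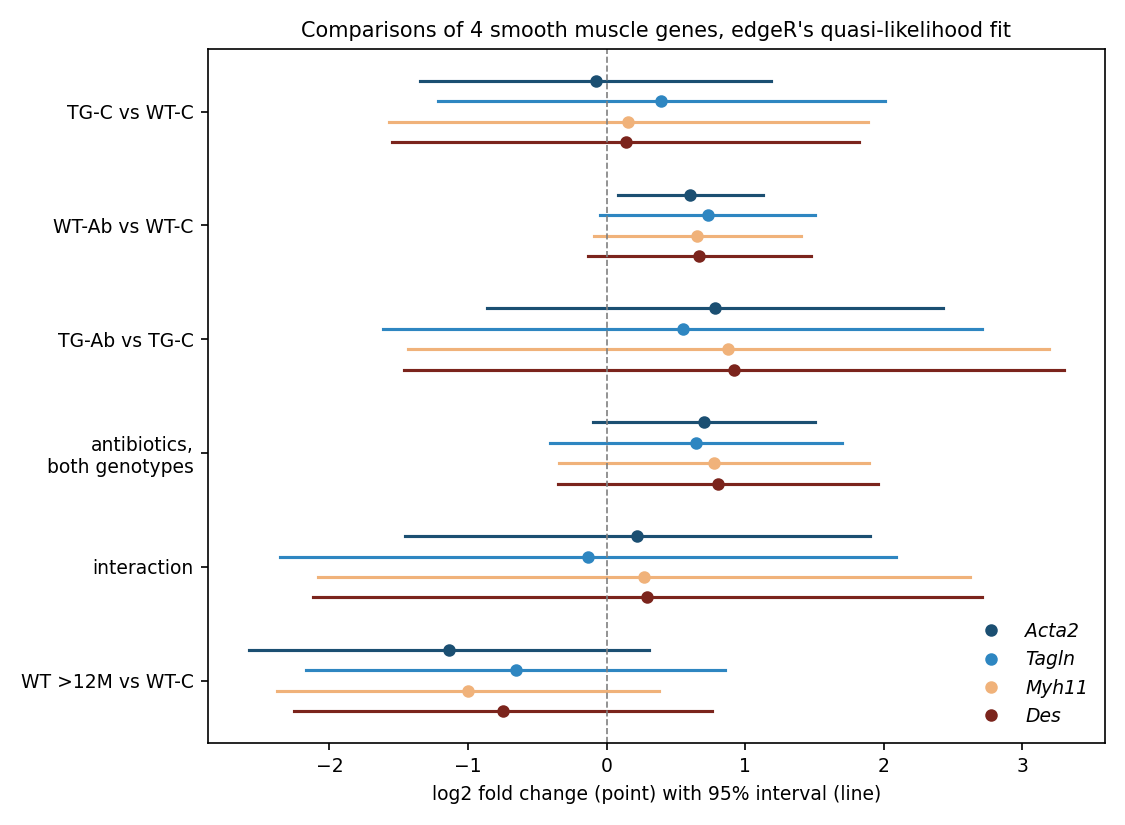
log2 fold change (points) and 95% interval (lines) of Acta2, Tagln, Myh11 and Des in 6 comparisons by edgeR's quasi-likelihood fit without a block; the dashed line marks no change. All 4 genes lie above 0 in the antibiotic comparisons and below it at > 12 M, and only the interval of Acta2 in WT-Ab against WT-C excludes 0.

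A set of other genes followed the same pattern across the 12 libraries at 3 M. Likeness was the Pearson correlation of a gene's log2 CPM, after TMM scaling, with the mean of the 4 genes. Of 12453 other genes, 166 (1.33%) had r over 0.9 and 2 had r under −0.9; the median r was −0.08. Without TMM scaling, 195 and 0 genes passed these limits, and with the 3 libraries of the first component left out 244 and 45. The 2 most alike were ENSRNOG00000016731 on chromosome 5 from 59016622 to 59025631 (r = 0.995) and ENSRNOG00000027736 on chromosome 8 from 23113048 to 23121761 (r = 0.994). The first ranged from 167 CPM in TG-C 1 through a median of 415 to 1517 CPM in TG-Ab 2, and the second from 90.5 through 262 to 1558 CPM in the same 2 libraries. At the other end were ENSRNOG00000019246 on chromosome 15 from 34265557 to 34269851 (r = −0.953, and −0.781 without TMM scaling) and ENSRNOG00000008994 on chromosome 4 from 145330457 to 145340984 (r = −0.930, and −0.675). Both were lowest in TG-Ab 2 and highest in TG-C 1, with a range of 70.3 to 123 CPM for the former, far narrower than that of the 2 genes at the top.

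The muscle level also entered the model as a covariate, to see how many calls of the whole table kept their place. With the mean log2 CPM of the 4 genes in the fit, the genes called for antibiotics over both genotypes went from 347 to 229, of which 182 were shared, 52.4% of the former and 79.5% of the latter. For age in WT rats they went from 4061 to 2691, with 2527 shared, 62.2% and 93.9%. For the other comparisons the calls were 0 to 2 with or without the covariate. A covariate takes 1 degree of freedom and overlaps with treatment and age, so its share in the lost calls was not tested.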

How the data were processed

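Poly(A) RNA of the colon mucosa and submucosa was measured in 15 libraries, grouped by the sample labels. The authors deposited raw counts per gene, made with featureCounts 2.0.0 over Rnor6 exons (strand setting 2, mapping quality of at least 3). Pairs were counted in the > 12 M libraries and single reads in the rest. STAR 2.5.4a and bcl2fastq 2.19.1 are named in the submitters' processing notes. The labels name NEBNext directional poly(A) libraries, whereas the paper's methods name QuantSeq 3′ libraries and mRatBN7.2. The promoters are those of RefSeq, GRCr8. The transgene of the TG rats is not reported here.

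The 4 genes and all lists were chosen with earlier results of these data known. The total over all genes of a library was the denominator of its CPM. Values of log2 CPM used a prior count of 2 and totals scaled by TMM, unless stated otherwise. A comparison kept each gene that reached 4 CPM in 1 or more of its libraries. Counts were scaled by TMM and tested with glmQLFit (robust) and glmQLFTest in edgeR 4.0.16 (R 4.3.3), two-sided, with Benjamini-Hochberg adjustment over all genes kept. Each comparison of 2 groups used those groups alone; the interaction and the effect over both genotypes used the 12 libraries at 3 M. The script was tested on simulated data. No libraries of a group were alike within sampling noise (lowest mean chi-square per gene 23.5, where 1 is expected).

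For TG-C and TG-Ab, same-numbered libraries departed from their group means together (r across genes 0.798, 0.793 and 0.577). These numbers were treated as pairs, on the data's evidence alone. Between WT-C and WT-Ab the values were −0.05, 0.19 and −0.15, and between WT-C and TG-C −0.05, 0.32 and −0.23, so there the numbers were not treated as pairs. The numbers also linked WT-Ab to TG-C (0.823, 0.410 and 0.796) and to TG-Ab (0.593, 0.228 and 0.555), groups that were not compared.

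The rule for naming genes was to give all 4 genes in every library and, where no symbols were at hand, at most 2 IDs at each end of the likeness ranking. Symbols could be matched to 0 of the 32883 Ensembl IDs through the reference table, and marker lists of other cell types and the other genes of the pathway were therefore not analysed here. DESeq2 1.42.0 (size factors, Wald test) and the likelihood ratio test of edgeR served as alternatives, as did other filters, all groups in 1 fit, the replicate block, the muscle level as a covariate, other totals for the share, and leaving out libraries.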

Additional observations from a re-analysis of the deposited data

How the results depend on the processing

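Beside leaving out single libraries, 179 of the recomputed values kept their direction and side of the threshold and 9 changed sign, none of them called. With the replicate block, TG-C against WT-C gave −0.10 for Tagln, −0.41 for Myh11 and −0.40 for Des on the log2 scale. Between these groups the numbers did not behave as pairs. Without WT-Ab 1, TG-C 1 and TG-Ab 1, Acta2 gave 0.28 in that comparison and the interaction 0.20 for Tagln. Without TG-C 2 and TG-Ab 2, a choice made after seeing the data, TG-C against WT-C gave −0.86 for Tagln, −1.20 for Myh11 and −1.20 for Des, and the interaction 0.14 for Tagln. The block changed no call of the 4 genes. The mean share in WT-C was 0.338% without mitochondrial genes in the total and 0.305% with totals scaled by TMM.

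Leaving out 1 library at a time, 169 values kept direction and side, 21 changed sign and 2 came to be called, which raised the calls at > 12 M from 0 to 2 without library 19. That fit called 3145 of 11466 genes. In TG-C against WT-C the log2 fold changes ran from −0.95 to 0.28 for Acta2, −0.86 to 0.78 for Tagln, −1.20 to 0.58 for Myh11 and −1.20 to 0.52 for Des. In TG-Ab against TG-C they ran from −0.41 to 1.81 for Tagln, −0.14 to 2.24 for Myh11 and −0.25 to 2.26 for Des. The interaction ran from −0.39 to 1.08 for Acta2, −1.11 to 1.10 for Tagln, −0.76 to 1.61 for Myh11 and −0.89 to 1.61 for Des. The cause was not tested.

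Counts over all genes depended on the method. DESeq2's Wald test called 13 genes in TG-C against WT-C, 615 in WT-Ab against WT-C, 201 in TG-Ab against TG-C, 1247 for antibiotics over both genotypes and 3 for the interaction. In the same order, edgeR's likelihood ratio test called 4, 186, 73, 519 and 1, against 0, 0, 1, 347 and 0 in the quasi-likelihood test. With the replicate block, TG-Ab against TG-C gave 20 calls and both genotypes together 820. Without the 3 libraries apart on the first component the calls were 1 in TG-C against WT-C, 187 in WT-Ab against WT-C, 0 in TG-Ab against TG-C and 1342 over both genotypes. Without TG-C 2 and TG-Ab 2 they were 0 in TG-Ab against TG-C and 43 over both genotypes. All groups in 1 fit called 8 genes in WT-Ab against WT-C and 14 in TG-Ab against TG-C, where DESeq2 size factors gave 3, no filter 11 and a filter of 4 CPM in every library 0. Leaving out 1 library gave 89 to 1848 calls over both genotypes, 0 to 187 in WT-Ab against WT-C and 2505 to 4004 at > 12 M, against 4061.

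Each library held at least 10932 counts of the 4 genes together, so counting error was small beside the spread between libraries in every group but WT-C. There the binomial intervals of WT-C 1 and WT-C 2 overlapped. The spread between libraries set the precision of every comparison.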
